A study of Mus musculus with 6 samples.

Results

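Fc gamma receptors are the cell surface receptors for IgG, and the 8 genes described here encode the 4 mouse Fc gamma receptors (Fcgr1, Fcgr2b, Fcgr3 and Fcgr4), the IgG transport receptor (Fcgrt) and 3 of their signalling partners (Fcer1g, Syk and Inpp5d). They were taken by symbol from 54532 measured genes. They were selected on their FPKM differences between the groups compared here, so their levels and differences are a description: standard errors and calls from the fit across all genes are printed for them, but support nothing. RNA came from immortalised bone marrow-derived macrophages (iBMDM), a growing line made from mouse marrow macrophages with retroviral v-raf and v-myc. Of 6 libraries, 3 were from WT cells and 3 from cells labelled 4-1BBL KO, which should lack the TNF family ligand 4-1BBL, and all of them had been kept with IL-4 (10 ng/ml) over 24 hours. The labels give neither the number of clones or animals behind each group nor the part of the gene that was removed. They also do not say that the 3 libraries of a group were separate cultures, so the spread between them may be technical.

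The activating receptors FcγRI (Fcgr1), FcγRIII (Fcgr3) and FcγRIV (Fcgr4) pair with the γ chain encoded by Fcer1g, whose ITAM (immunoreceptor tyrosine-based activation motif) is phosphorylated by Src family kinases and then recruits the kinase Syk, which drives phagocytosis of IgG-coated particles and cytokine release. FcγRIIb (Fcgr2b) carries its own inhibitory motif and recruits the lipid phosphatase SHIP1 (Inpp5d), which dampens the same signal. Macrophages carry both kinds, and in human monocytes IL-4 is known to raise the inhibitory receptor.

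Fcgr2b, Fcgr4 and Fcgr3 lie within 106 kb of each other on chromosome 1 in mm10, at chr1:170958617-170976547 on the minus strand, chr1:171018920-171029761 on the plus strand and chr1:171051174-171064935 on the minus strand. Fcer1g follows 165 kb beyond Fcgr3, at chr1:171229572-171234365. Fcgr1 is on chromosome 3. The 250 bases before the RefSeq start of each receptor gene (GRCm38.p6) are shown as a description. They are chr3:96293970-96294219 (minus strand) for Fcgr1, chr1:171059404-171059653 (minus) for Fcgr3, chr1:171018676-171018925 (plus) for Fcgr4 and chr1:170976072-170976321 (minus) for Fcgr2b. For Fcgr3 the first of the 2 listed starts, 9 bases apart, is used. This Fcgr3 start, 171059403, and those of Fcgr2b and Fcgr4 lie inside the gene spans given above. Capitals mark GAGGAA on either strand, a form of the sites bound by the macrophage transcription factor PU.1:
Fcgr1: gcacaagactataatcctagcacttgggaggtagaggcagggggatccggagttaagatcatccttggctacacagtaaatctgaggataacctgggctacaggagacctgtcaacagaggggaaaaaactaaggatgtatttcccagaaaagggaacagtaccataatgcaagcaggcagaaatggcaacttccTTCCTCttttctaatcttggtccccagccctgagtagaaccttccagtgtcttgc
Fcgr3: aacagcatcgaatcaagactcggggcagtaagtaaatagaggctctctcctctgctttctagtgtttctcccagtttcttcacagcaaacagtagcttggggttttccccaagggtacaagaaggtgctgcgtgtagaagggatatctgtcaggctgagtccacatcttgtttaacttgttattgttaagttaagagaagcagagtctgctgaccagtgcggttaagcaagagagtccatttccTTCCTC
Fcgr4: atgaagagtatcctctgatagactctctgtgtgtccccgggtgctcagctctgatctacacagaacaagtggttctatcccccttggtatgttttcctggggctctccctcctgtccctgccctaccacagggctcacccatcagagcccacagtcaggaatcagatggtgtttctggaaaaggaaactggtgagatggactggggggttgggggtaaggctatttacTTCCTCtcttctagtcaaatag
Fcgr2b: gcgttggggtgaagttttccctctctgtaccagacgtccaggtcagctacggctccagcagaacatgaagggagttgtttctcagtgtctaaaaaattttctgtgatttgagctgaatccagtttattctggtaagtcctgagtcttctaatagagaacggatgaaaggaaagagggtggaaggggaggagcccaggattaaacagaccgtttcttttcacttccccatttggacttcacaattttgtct
The motif stood within the last 60 bases before the start in all 3 activating receptors, and GAGGAA was not found in the 250 bases of Fcgr2b. The shorter GGAA, which the Fcgr2b sequence holds on both strands, was neither marked nor counted. Inpp5d and the second of the 2 listed starts of Syk also held it within 60 bases, whereas Fcer1g, Fcgrt and the first start of Syk did not. Of 32851 mouse promoters in the same table, 23.3% held GAGGAA in the 250 bases and 6.08% in the last 60. The match is a description of the letters and was sought with the sequences in view. The STAT-type motif TTCNNNGAA, searched on both strands like the others, was found for Fcgr1 (7.02% of all promoters). The STAT6-type motif, which has a longer spacer, was found for Inpp5d as TTCAGGGGAA (5.85% of promoters hold the motif), and an interferon-type element for Fcgr4 as GAAAAGGAAA (2.98%). CACGTG and TGANTCA were found in none of the 10 start regions of the 8 genes (6.02% and 6.75% of all promoters). Spi1, the gene of PU.1, did not pass the test, at 135 ± 1.79 FPKM against 137 ± 7.61 FPKM in the KO-labelled group (SD, n = 3, limma adjusted p = 0.763, Benjamini-Hochberg). Any link between these motifs and the transcript levels was not tested.

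Several facts of the libraries bear on what follows. Depth, recovered from the deposited FPKM (fragments scaled to exon length and library depth), lay between 20.7 and 22.3 M (mega) fragments for WT and between 19.1 and 26.4 M for KO-labelled libraries. Tnfsf9, the gene of 4-1BBL, had 14.6, 10.4 and 12.05 FPKM in the WT libraries, against 10.7, 10.7 and 11.4 FPKM in the KO-labelled ones (exact two-sided permutation p = 0.4, with 0.1 the smallest possible), so the level of the transcript did not differ beyond the spread. Gm11110, a noncoding gene on the opposite strand that covers 14.9% of the Tnfsf9 exon length, was at 4.56, 3.08 and 3.52 FPKM in WT, with 0.0706, 0 and 0 FPKM in the other group. Neither settles which part of Tnfsf9 was removed, and those cells are called KO-labelled. The groups differed widely, with 6594 of 10843 tested genes past an adjusted p of 0.05 in limma. The Y-linked genes Ddx3y and Eif2s3y were nearly or fully silent in WT libraries but detected in every KO-labelled library. Ddx3y averaged 0.00309 FPKM in the former, from 1 fragment in all, against 10.8 FPKM in the latter. For Eif2s3y the corresponding means were 0 and 10.4 FPKM. The groups thus differed in Y-linked transcripts as well as in label, and whether their cells share an origin was not tested. Of 8 macrophage markers, 7 were detected in every library and Mertk, with 2 fragments in 1 WT library and none in the others of that group, was at 4.24 FPKM in KO-labelled cells. The 8 had summed levels of 2284 to 2336 and 1323 to 1368 FPKM, 2 higher and 4 lower in KO-labelled libraries. Adgre1, the F4/80 antigen, was at 11.8 and 268 FPKM, while Cd14 (292 and 45.8 FPKM), Lyz2 (1207 and 484 FPKM), Csf1r (232 and 134 FPKM) and Cd68 (426 and 275 FPKM) were the 4 lower ones. Summed markers of B cells reached at most 0.615 FPKM in WT libraries and 1.80 FPKM in the others (Cd79b, 0.230 and 1.54 FPKM, with Ms4a1 at 0 throughout), those of T and NK cells at most 0.0516 and 0.0280 FPKM, those of mast cells and basophils at most 0.216 and 0 FPKM, those of neutrophils at most 0.141 and 1.26 FPKM, those of dendritic cells at most 0.315 and 0.187 FPKM and those of fibroblasts at most 0 and 0.0151 FPKM. Of 5 platelet lineage markers, Pf4, which macrophages can also make, accounted for nearly all of the 15.6 to 17.7 FPKM in KO-labelled libraries and was at 0 in WT. The part of these differences in the results was not tested. In bulk RNA, fewer cells with a transcript and less of it per cell cannot be told apart.

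Transcripts of the receptors were more abundant in KO-labelled cells, and by FPKM the receptor that dominated in WT was not the one that dominated in KO-labelled cells. All 8 genes had a mean above 1 FPKM over the 6 libraries, the level for testing, although Fcgr2b and Fcgr3 reached it through the KO-labelled group alone. Of the 8, 7 were called higher and none lower by the fit across all genes, where 60.8% of tested genes were called and 30.6% were called higher. For all 8 every KO-labelled library lay above every WT library, as for 34.1% of tested genes (33.4% the other way, 67.4% in all). Since this comparison was known when the genes were chosen, nothing is read from these counts.

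Fcgr3 encodes the low-affinity activating receptor FcγRIII. WT replicates 1 to 3 gave 0.189, 0.805 and 0.233 FPKM, from 7, 29 and 9 fragments, while KO-labelled replicates 1 to 3 gave 74.5, 75.3 and 80.3 FPKM. The KO-labelled libraries lay close together and far above WT, where replicate 2 held most of the fragments. The ratio of the group means was 188, or 364 without WT replicate 2, and the difference in log2(FPKM + 1) was 5.81 ± 0.16 (SE from limma).

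Fcgr1 encodes the high-affinity IgG receptor FcγRI. It measured 8.34, 7.84 and 9.19 FPKM in the WT libraries, against 21.9, 24.8 and 22.2 FPKM in the KO-labelled ones. It was the only one of the 4 Fc gamma receptor genes above 3 FPKM in every WT library, and its ratio of means, 2.72, was the smallest of the 4 (log2 difference 1.34 ± 0.07).

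Fcgr4 encodes FcγRIV, an activating receptor of intermediate affinity. It measured 2.27, 2.65 and 1.14 FPKM in the WT libraries, against 15.5, 16.9 and 16.5 FPKM in the KO-labelled ones, 8.05-fold higher (log2 difference 2.55 ± 0.19). WT replicate 3 was the lowest, with 32 fragments against 61 and 69 in the other WT libraries.

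Fcgr2b, the inhibitory receptor, moved in the same direction as the activating ones. It measured 0.590, 0.350 and 0.752 FPKM in the WT libraries, against 41.8, 41.6 and 50.8 FPKM in the KO-labelled ones, a 79.3-fold ratio of means (log2 difference 4.87 ± 0.12). Behind these values were 212 fragments over the 3 WT libraries and 16763 over the KO-labelled ones. The antisense gene Gm38204 covers 2.68% of the exon length of Fcgr2b and was at most 0.490 FPKM in any library.

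Fcgr2b and Fcgr3 are similar in sequence, and how reads shared by both were divided is not given in the sources used here. Of all distinct 50-base words of the Fcgr3 transcripts, 9.58% also occurred in transcripts of another gene, with all 166 of them found in Fcgr2b, and of the 100-base words 2.54% did. Of the Fcgr2b words, 6.95% of those of 50 bases (395, of which 166 in Fcgr3) and 4.30% of those of 100 bases (251, of which 127 in Cplx2) occurred elsewhere. For Fcgr1, Fcgr4, Fcgrt, Fcer1g and Syk no such word was shared.

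**Figure D1:**
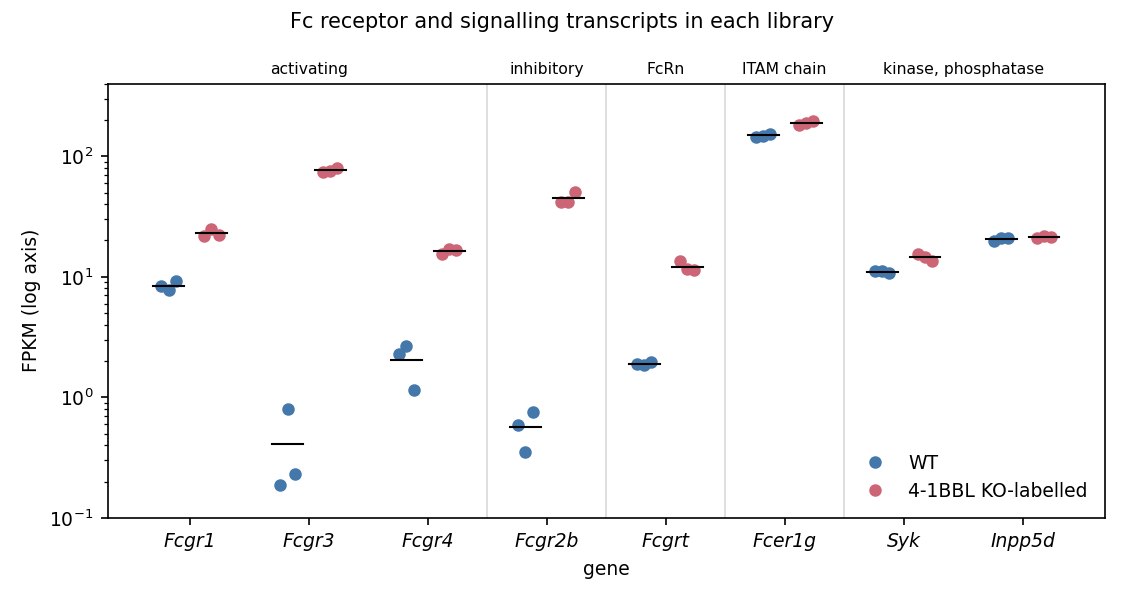
FPKM of each of the 8 genes in each library on a log axis, with WT in blue, KO-labelled in red and the group mean as a black line. Fcgr3 and Fcgr2b lie below 1 FPKM in every WT library and above 40 FPKM in every KO-labelled one, while Inpp5d lies between 19.9 and 21.9 FPKM in all 6.

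Set against each other, the summed FPKM of the 4 receptor genes was 11.5 ± 0.17 in WT and 161 ± 8.30 in KO-labelled libraries (SD, n = 3), and the sum of the 3 activating genes was 10.9 ± 0.37 and 116 ± 3.68. In WT, Fcgr1 made up 73.2%, 67.3% and 81.2% of the 4 in replicates 1 to 3, whereas in KO-labelled libraries it made up 14.3%, 15.6% and 13.1%. Fcgr3 made up 1.66%, 6.92% and 2.06% in WT and 48.5%, 47.5% and 47.3% in KO-labelled libraries. The most abundant receptor transcript was thus Fcgr1 in every WT library and, by FPKM though not per length of the shorter Fcgr2b transcript, Fcgr3 in every KO-labelled one.

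The share of the inhibitory Fcgr2b was 5.18%, 3.00% and 6.64% in WT and 27.2%, 26.2% and 29.9% in KO-labelled libraries, or 4.94 ± 1.83% and 27.8 ± 1.91% (SD, n = 3). The ratio of activating to inhibitory FPKM was accordingly 18.3, 32.3 and 14.0 in WT and 2.68, 2.81 and 2.34 in KO-labelled libraries. The groups did not overlap in either measure. Within KO-labelled libraries Fcgr3 stood above Fcgr2b, by 1.72 ± 0.13 times, but this order depends on the length used: FPKM divides the fragments of Fcgr2b by all 5790 annotated exon bases, whereas its principal transcripts are 3544 and 1578 bases long. Per length of the shorter one, a scale added after the data were seen, the KO-labelled level was 164 for Fcgr2b and 98.9 for Fcgr3, and the Fcgr2b share became 15.8% in WT and 54.2% in KO-labelled libraries. Without division by length it was 11.4% and 54.8%. The share was higher in KO-labelled libraries on each of these scales.

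**Figure D2:**
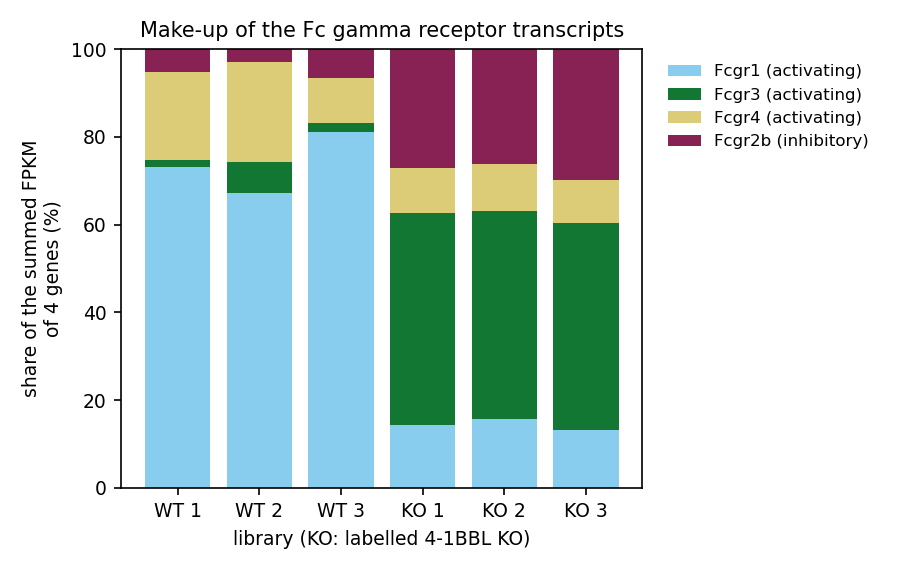
Share of each receptor gene in the summed FPKM of the 4 Fc gamma receptor genes, as stacked bars for each library, with the activating genes below and the inhibitory Fcgr2b on top. Fcgr1 fills 67.3% to 81.2% of the WT bars, and Fcgr3 and Fcgr2b together fill most of the KO-labelled bars. The order of Fcgr3 and Fcgr2b there turns around per length of the shorter Fcgr2b transcript.

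Fcgrt encodes the heavy chain of FcRn, the receptor that salvages IgG from endosomes and is not one of the signalling receptors. It measured 1.89, 1.86 and 1.94 FPKM in the WT libraries, against 13.5, 11.6 and 11.3 FPKM in the KO-labelled ones, 6.39-fold higher (log2 difference 2.18 ± 0.08). Its partner chain B2m, also part of MHC class I molecules, was at 400 ± 6.41 and 978 ± 91.5 FPKM (SD, n = 3) and rose by 1.28 on the log2 scale (limma adjusted p = 5.58e-06, Benjamini-Hochberg).

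The signalling partners differed far less than the receptors. Fcer1g, the shared ITAM chain, was the most abundant of the 8 genes in both groups, with 146, 146 and 154 FPKM in the WT libraries against 183, 189 and 196 FPKM in the KO-labelled ones (1.27-fold, log2 difference 0.35 ± 0.04). Its level was 13.7 ± 0.85 times the summed FPKM of the activating receptors in WT and 1.63 ± 0.02 times in KO-labelled libraries (SD, n = 3). Per length of the principal transcripts the ratio was 17.5 and 1.78, and in fragments not divided by length 5.17 and 0.777. Fcer1g thus exceeded the receptors it pairs with per length, whereas in undivided fragments it was below them in all 3 KO-labelled libraries. Fcer1g also serves receptors outside this family, such as FcεRI and several lectins.

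Syk, the kinase recruited by the phosphorylated ITAM, measured 11.1, 11.2 and 10.7 FPKM in the WT libraries, against 15.4, 14.6 and 13.4 FPKM in the KO-labelled ones (1.32-fold, log2 difference 0.37 ± 0.06). Inpp5d, the SHIP1 phosphatase, measured 19.9, 20.8 and 21.0 FPKM in the WT libraries, against 21.1, 21.9 and 21.4 FPKM in the KO-labelled ones, with group ranges only 0.0441 FPKM apart (log2 difference 0.06 ± 0.05). It was the one gene of the 8 not called. After rescaling to TPM (per-length values scaled to 1 total in every library), its difference was 0.15 and it was called. That was so in 1 of 14 settings, and the rescaling raised the median of all tested genes from 0.01 to 0.10. The ratio of Inpp5d to Syk was 1.79, 1.86 and 1.96 in WT and 1.37, 1.498 and 1.59 in KO-labelled libraries, and the groups did not overlap.

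Ordered by FPKM, the WT levels ran from Fcer1g (149 ± 4.88) through Inpp5d (20.6 ± 0.61), Syk (11.0 ± 0.25), Fcgr1 (8.46 ± 0.69), Fcgr4 (2.02 ± 0.78), Fcgrt (1.90 ± 0.04) and Fcgr2b (0.564 ± 0.20) to Fcgr3 (0.409 ± 0.34). Libraries of Fcgr4 and Fcgrt overlapped, as did those of Fcgr2b and Fcgr3. In KO-labelled libraries the order of FPKM was Fcer1g (189 ± 6.66), Fcgr3 (76.7 ± 3.14), Fcgr2b (44.7 ± 5.27), Fcgr1 (23.0 ± 1.58), Inpp5d (21.5 ± 0.43), Fcgr4 (16.3 ± 0.72), Syk (14.5 ± 0.98) and Fcgrt (12.1 ± 1.19). There Fcgr1 overlapped with Inpp5d, and Syk with Fcgrt. Per length of the longest principal transcripts, Inpp5d (33.0 ± 0.66) and Syk (25.3 ± 1.72) both had a higher KO-labelled mean than Fcgr1 (23.0 ± 1.58). By mean FPKM, Fcgr3 was last of the 8 in WT, though above Fcgr2b in replicate 2, and second in KO-labelled libraries, where Fcgr2b passes it per length of the shorter Fcgr2b transcript.

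Most tested genes around the chromosome 1 cluster did not share its direction. Of 15 other tested genes within 250 kb of Fcgr2b, Fcgr4, Fcgr3 or Fcer1g, 8 fell, 1 rose and 6 did not pass, with log2 differences from -0.999 to 0.21 and a median of -0.48, beside 30.2% lower and a median of 0.01 over all tested genes. The riser, Nit1 (log2 difference 0.21, limma adjusted p = 0.0283), lost its call in 5 of the 13 alternatives, with adjusted p over all 13 from 0.00721 to 0.0949. Sdhc, a subunit of succinate dehydrogenase and the nearest tested gene beyond Fcgr3, fell from 69.3 ± 0.79 to 44.3 FPKM (log2 difference -0.64, limma adjusted p = 4.29e-05, Benjamini-Hochberg). B4galt3, a galactosyltransferase gene, fell by 0.999 on the log2 scale, the lowest of the 15.

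**Figure D3:**
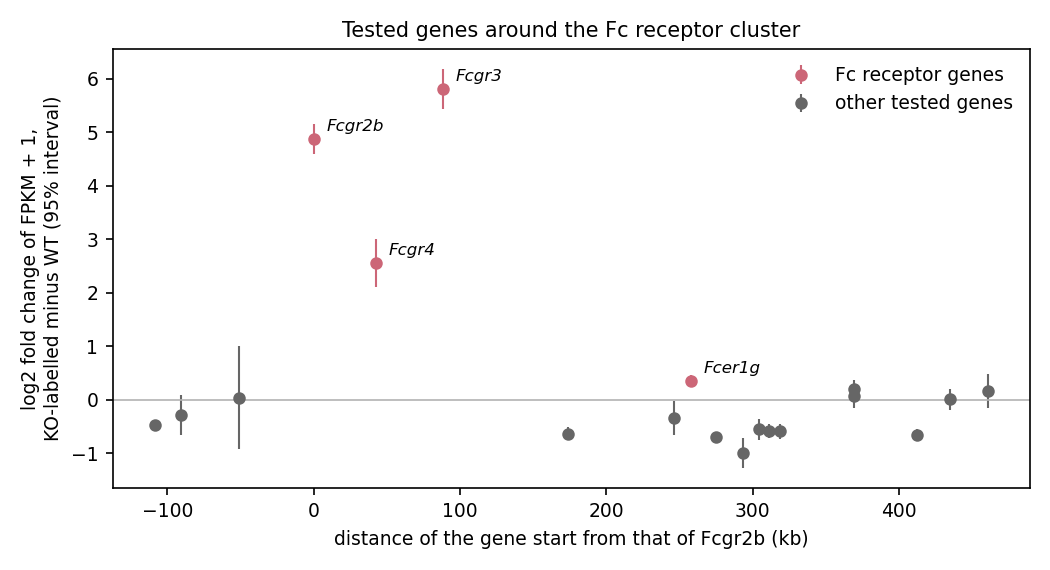
Difference in log2(FPKM + 1), KO-labelled minus WT, with 95% intervals, for the tested genes around the cluster, by distance of the gene start from that of Fcgr2b. Fcgr2b, Fcgr4 and Fcgr3 stand at 4.87, 2.55 and 5.81, whereas the other tested genes lie between -0.999 and 0.21.

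Across all 10843 tested genes, the profiles nearest to Fcgr3 by Euclidean distance of log2(FPKM + 1) over the 6 libraries were those of Basp1 (distance 0.704), Lipn (1.01) and Tarm1 (1.12). For Fcgr2b they were Serpina3g (0.496), Saa3 (0.522) and Slc7a8 (0.638), for Fcgr1 Cln6 (0.258), Rmnd5a (0.335) and Etv5 (0.341), and for Fcgr4 Cd274 (0.661), Gm8995 (0.732) and Ceacam19 (0.740). The 6 libraries form 2 groups, so this distance compares little more than 2 group means.

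Of 120 further genes of Fc receptor signalling and phagocytosis, 95 were tested, of which 44 rose, 30 fell and 21 did not pass, or 77.9% called beside 60.8% over all tested genes. After rescaling to TPM the split was 50 higher and 25 lower, and 3969 higher and 2642 lower over all tested genes, against 3321 and 3273 without it. Their median log2 difference was 0.09, against 1.76 for the 8 genes, which were chosen with this comparison known, and 0.01 for all tested genes.

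Among other Fc receptors and partner chains, 5 of 17 were tested, of which 2 rose, 1 fell and 2 did not pass. Trim21, a cytosolic receptor for antibody, rose from 1.34 ± 0.31 to 2.98 ± 0.13 FPKM, and Fcrl1, an Fc receptor-like gene best known from B cells, fell from 9.29 ± 0.24 to 4.31 ± 0.38 FPKM (SD, n = 3 each; limma, largest Benjamini-Hochberg adjusted p = 0.000991). Tyrobp, the DAP12 chain that acts beside Fcer1g for other receptors, measured 230 ± 14.2 against 221 ± 7.01 FPKM, which did not pass (log2 difference -0.06, limma adjusted p = 0.402), and under quantile normalization its difference was 0.18 with an adjusted p of 0.0111. Cd247, the ζ chain that partners FcγRIII in human NK cells, and Fcer1a, the IgE-binding chain of FcεRI, were listed at 0 in all 6 libraries. For Cd247, 56.4% of the exon length overlaps Pou2f1 on the other strand, and how reads there were counted is not given.

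Of the Src and Tec family kinases, 7 were tested: 3 rose, 3 fell and 1 showed no called difference. Fyn rose from 9.51 ± 0.61 to 27.6 ± 1.85 FPKM (limma, Benjamini-Hochberg adjusted p = 3.36e-06). By contrast, Fgr fell from 4.60 ± 0.10 to 0.624 ± 0.17 FPKM and Lck from 1.79 ± 0.19 to 0.771 ± 0.18 FPKM. Fgr and Lck reached the level for testing through the WT group alone, so no p-value is given for them. The kinases able to phosphorylate the ITAM therefore moved in both directions while the receptors and Fcer1g were all higher.

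Adaptors and activating effectors also split, with 14 of 28 tested higher, 11 lower and 3 not passing. Lat2, the adaptor NTAL, fell from 27.4 ± 1.21 to 0.265 ± 0.17 FPKM, although 36.3% of its exon length overlaps Rfc2 on the other strand. Rfc2 was at 16.5, 17.03 and 15.6 FPKM in the WT libraries and 14.8, 14.8 and 17.4 FPKM in the KO-labelled ones. Prkca, a protein kinase C, fell from 10.2 ± 0.38 to 0.890 ± 0.23 FPKM and Nfatc1, a calcium-dependent transcription factor, from 20.03 ± 0.55 to 4.96 ± 0.22 FPKM, while the ubiquitin ligase gene Cblb rose from 1.20 ± 0.16 to 4.60 ± 0.54 FPKM. Lat2 and Prkca reached the level for testing through the WT group alone, so no p-value is given for them. For Nfatc1 and Cblb the larger Benjamini-Hochberg adjusted limma p was 3.46e-05.

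On the inhibitory side, beside Fcgr2b and Inpp5d, 13 phosphatases and adaptors were tested, with 5 higher, 4 lower and 4 not called. Ptpn22 fell from 15.2 ± 0.67 to 2.28 ± 0.44 FPKM, and the docking proteins Dok3 and Dok2 fell from 22.1 ± 1.89 to 4.73 ± 0.45 FPKM and from 25.6 ± 2.59 to 8.11 ± 1.28 FPKM. Ptprc, the CD45 phosphatase, rose from 8.94 ± 0.17 to 17.6 ± 1.67 FPKM (limma, largest Benjamini-Hochberg adjusted p of these 4 = 4.33e-05). Ptpn6, the SHP-1 phosphatase, measured 172 ± 0.65 against 161 ± 8.40 FPKM, which did not pass (log2 difference -0.09, adjusted p = 0.138, and 0.0332 without KO-labelled replicate 1).

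Of the phagocytic actin and membrane genes, 37 were tested, with 18 higher, 9 lower and 10 not called. Marcks, a membrane-bound actin regulator, was at 0, 0.0476 and 0.0555 FPKM in WT, from 9 fragments in all, against 26.1 ± 2.09 FPKM where KO-labelled. Marcks reached the level for testing through the KO-labelled group alone, so no p-value is given for it. The phospholipase gene Pld2 rose from 1.67 ± 0.18 to 7.55 ± 0.50 FPKM, the myosin gene Myo1g from 7.52 ± 0.50 to 18.3 ± 0.47 FPKM and the membrane-bending gene Bin1 from 12.1 ± 0.23 to 27.0 ± 1.52 FPKM (limma, largest Benjamini-Hochberg adjusted p of Pld2, Myo1g and Bin1 = 4.24e-06). In the phagocyte NADPH oxidase, which Fc receptors activate, 2 of 6 rose, 3 fell and 1 did not pass. Its catalytic subunit gene Cybb rose from 53.1 ± 2.04 to 85.3 ± 6.26 FPKM, while the cytosolic subunit genes Ncf1 and Ncf4 fell from 103 ± 2.22 to 61.5 ± 1.96 FPKM and from 70.9 ± 2.30 to 39.7 ± 1.95 FPKM, and Rac2, its GTPase, fell from 185 ± 3.21 to 87.9 ± 1.62 FPKM (limma, largest Benjamini-Hochberg adjusted p = 9.71e-05).

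**Figure D4:**
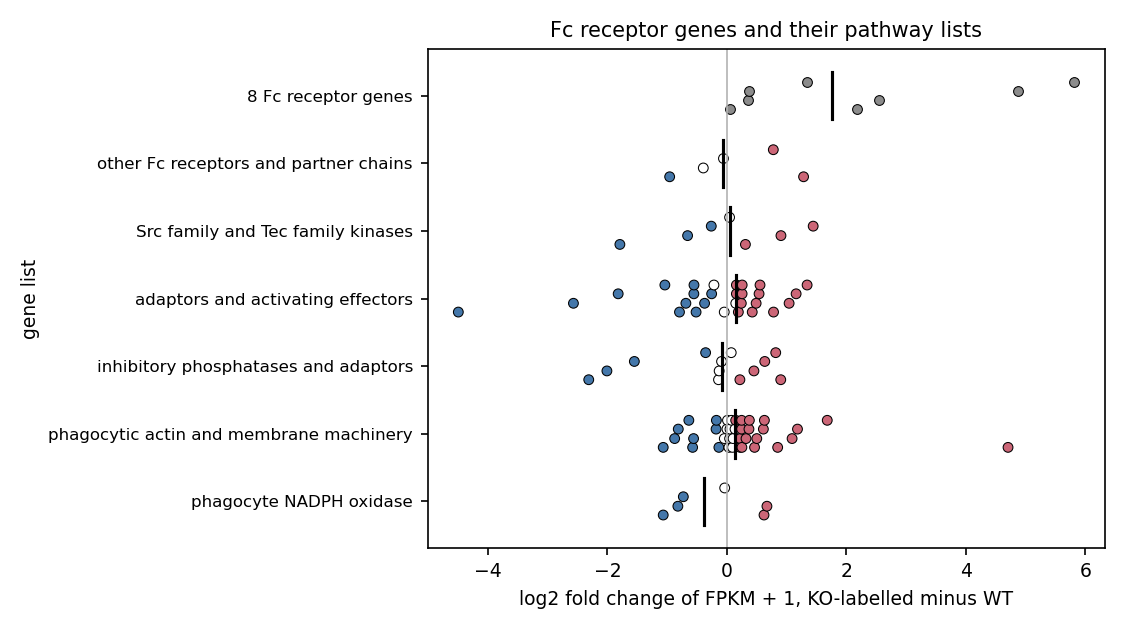
Difference in log2(FPKM + 1), KO-labelled minus WT, for each tested gene of the 8 described genes (grey, not tested as a group) and of the 6 pathway lists, with called genes in red (higher) or blue (lower), others in white and the median of each row as a black line. The 8 genes lie between 0.06 and 5.81, whereas each pathway list spreads to both sides of 0.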

How the data were processed

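The authors deposited 1 FPKM value per Ensembl gene and library. The genome build mm10, the counter featureCounts 1.5.0-p3 and the aligner HISAT2 2.0.5 are named per the submitters' processing notes. Not given in the sources used here are the annotation release, strand setting and treatment of reads with several positions. Symbols, lengths and positions came from GENCODE M21 (mm10), which matched 54495 identifiers. The 8 genes and all lists were chosen with earlier results of these data known.

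FPKM times exon length stepped in whole fragments, with at least 97.9% of values up to 200 fragments whole within 0.1 in each library, which gave depths and fragment numbers for 54213 genes. Fragment numbers carry counting error as well as the spread between libraries.

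The 10843 genes averaging 1 FPKM or more over the 6 libraries entered a trended limma fit (limma 3.58.1, R 4.3.3). It compared log2(FPKM + 1), KO-labelled minus WT, at a Benjamini-Hochberg adjusted p of 0.05, and was checked on simulated data. The simulation had far fewer changed genes than were called here and the same spread setting for every gene. It left out genes below 1 FPKM in WT, such as Fcgr2b and Fcgr3, so it does not cover them. Differences on this scale understate changes of low genes, and folds are ratios of mean FPKM. Named pathway genes are the 4 called genes with the largest change in each list, plus Tyrobp, Cd247, B2m and Ptpn6; neighbours are tested genes within 250 kb. Not every gene under this rule is reported. Since the 4 of each list were picked by the size of their change, their adjusted p is a description. Other genes given with values were chosen after their values were seen. Promoter sequences are from RefSeq (GRCm38.p6), which matched all 8 genes. Alternatives were another pseudocount, other filters, TPM, quantile normalization, a replicate block, voom on recovered fragments, each library left out and, added later, other transcript lengths. Protein sequences were not used here.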

Additional observations from a re-analysis of the deposited data

How the results depend on the processing

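The size of the differences of low genes depended on the scale: the log2 difference ranged from 5.70 to 7.81 for Fcgr3 and from 4.77 to 6.34 for Fcgr2b. That of the abundant Fcer1g moved too, from 0.32 to 0.55, with the highest value under quantile normalization. Called pathway genes numbered 64 to 77 and called genes overall 4710 to 7414. Deviations of same-numbered libraries correlated at -0.03, 0.05 and -0.03, so no shared replicate effect was seen. Whether same-numbered libraries were handled together is not given and cannot be read from these values. With a replicate block 6194 genes and 71 pathway genes were called. Ratios between genes moved with the length used. From undivided fragments, the Fcgr2b share was 11.4% in WT and 54.8% in KO-labelled libraries, Inpp5d to Syk 1.52 and 1.21, and Fcer1g to activating receptors 5.17 and 0.777. Per longest principal transcript these were 7.75% and 34.5%, 1.65 and 1.31, and 17.5 and 1.78. Per shortest, they were 15.8% and 54.2%, 1.58 and 1.25, and 17.5 and 1.78. The direction between groups held on all of these scales. The sign of Tyrobp turned under TPM (0.037) and quantile normalization (0.18), as did that of Ptpn6 (0.0051 and 0.11). The cause was not tested. Depth limits Fcgr3 in WT, which rests on 45 fragments over 3 libraries.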
